A study of Caenorhabditis elegans with 10 samples.

Results

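*sftb-1* encodes the *Caenorhabditis elegans* ortholog of SF3B1, and *sftb-1(cer6)* is a deletion allele of it that brings a premature stop codon into the reading frame. The comparison described here sets 2 libraries of *sftb-1(cer6)* larvae against 2 libraries of WT larvae (strain N2), both at the L2 stage. These are 4 of the 10 libraries of the study and were chosen by their genotype and stage labels. The samples hold total RNA of whole larvae, depleted of ribosomal RNA. *cer6* homozygotes arrest as larvae, so the allele is kept in heterozygotes over *oxTi615*, a red nuclear marker driven by the *eft-3* promoter and linked to the WT copy of *sftb-1*. Non-red larvae were taken by a flow sorter as the homozygotes, and the authors found a small share of red larvae and of non-red recombinants among them. The N2 larvae passed through the same sorter with the same size and fluorescence window. The homozygotes come from heterozygous mothers and can still hold maternal SFTB-1 when they hatch. All L2 larvae, those of *cer39* below included, had grown for 23 hours at 20 °C. Both libraries of the mutant come from 1 strain with 1 allele. Another L2 group, 2 libraries of the missense allele *cer39* (K718E, R643C, Q552P), which had not been sorted, enters the same fit only to estimate the spread.

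SF3B1 is the largest subunit of SF3B, a complex that, with SF3A, forms part of the U2 small nuclear ribonucleoprotein (snRNP). During assembly of the spliceosome the U2 snRNP replaces earlier factors at the branch point, and SF3B1 holds the branch point adenosine until the first catalytic step. The polypyrimidine tract and the AG at the 3' splice site are read beforehand by the U2AF heterodimer, UAF-1 and UAF-2 in *C. elegans*. The tri-snRNP then brings U4, U6 and U5, and the PRP19 complex and a series of helicases carry the reaction through its steps. In nematodes many messengers also receive a spliced leader in *trans*, through the same kind of machinery.

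The guide RNA with which Cas9 cut *sftb-1* is shown because *cer6* arose where this cut was repaired without the template. The stretch of the repair template at the same place is shown beside it, with capitals for the 4 bases at which it differs from the guide. Both lie in *sftb-1* at III:4263786-4269270 of WBcel235, minus strand.
guide: aactatcactgctctctgct
template: aacAatcacAgcActctgcC

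The 4 libraries held 45313448 to 59721036 reads. The deposited values per transcript are counts normalized by DESeq2 size factors, summed here per gene, and are called normalized counts below. Residual ribosomal RNA took 20.5% to 26.6% of the reads. The WT libraries stood farther from each other than the *cer6* libraries did, with a median difference between replicates of 0.251 against 0.218 on the log2 scale over 15011 genes. More than 2-fold between replicates were 10.4% of the genes in WT and 4.93% in *cer6*. The unsorted *cer39* libraries, which share in the estimate of spread, stood closest to each other, with a median of 0.156 and 2.72% of the genes. The SE and adjusted p values of the fit rest in part on them. With only the 4 WT and *cer6* libraries 2440 genes passed, against 4142 with all 6. Differences between groups were tested by limma on log2(normalized count + 1), a scale that understates the change of low genes, with Benjamini-Hochberg adjustment over all genes and a threshold of 0.05. Every adjusted p below is from limma unless another tool is named. Fewer cells of a type and less RNA per cell cannot be told apart in whole larvae, and neither can a change of the genotype and one of developmental age.

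*sftb-1* fell in *cer6*. Its normalized count was 6152 and 7222 in the WT libraries and 3229 and 3580 in the *cer6* libraries, with no overlap. The log2 fold change was −0.97 (SE 0.129, adjusted p = 0.00592), and the gene passed with any 1 of the 6 libraries left out. Only 1 transcript of the gene is in the table, and the deleted stretch is a small part of it, so most of the reads lie outside the deletion.

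The other genes of SF3A and SF3B went up. Of the 10 genes of both complexes, 8 rose and *sftb-1* alone fell, against a background of 13.8% of all tested genes risen and 13.8% fallen. The median log2 fold change of the 10 genes was 0.78, against −0.01 over all genes. *teg-4*, the SF3B3 ortholog, had 5709 and 6264 in WT and 13649 and 13695 in *cer6* (log2 fold change 1.19, SE 0.102, adjusted p = 0.00235). For *repo-1*, the SF3A2 ortholog, these values were 1062 and 1177 against 2848 and 2303 (log2 fold change 1.19, adjusted p = 0.00445). *prp-21*, for SF3A1, went from 1506 and 1947 to 3658 and 3839 (log2 fold change 1.13, adjusted p = 0.00552). In each of these genes both *cer6* libraries stood above both WT libraries. *phf-5*, for the small SF3B subunit next to the branch point pocket, rose by 1.08 on the log2 scale (adjusted p = 0.00746), from 787 and 692 to 1682 and 1441. *T13H5.4* (*prp-9*, for SF3A3), *sftb-2* (for SF3B2), *C50D2.5* (*sftb-6*, for the p14 subunit) and *sap-49* (for SF3B4) rose by 0.72, 0.68, 0.67 and 0.83. *moa-2*, for the smallest SF3B subunit, had 376 and 382 in WT and 339 and 325 in *cer6* and did not pass (log2 fold change −0.19, adjusted p = 0.297). The calls for *sap-49*, *C50D2.5* and *sftb-2* held with 1, 2 and 4 of the 6 libraries left out in turn, and with *cer6* replicate 1 left out 5 of the 10 genes rose.

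Genes for proteins that meet SF3B at the 3' splice site rose in part. Of 12 genes for U2 snRNP proteins and their partners, 7 rose and none fell, with a median log2 fold change of 0.80. *rnp-6*, the ortholog of PUF60, a U2AF-like factor, had 2157 and 2532 in WT and 8704 and 8419 in *cer6* (log2 fold change 1.87, SE 0.115, adjusted p = 0.00139). *F53H1.1* (*ddx-46*), for the PRP5 helicase that admits U2 to the branch point, went from 2475 and 3261 to 10143 and 10151 (log2 fold change 1.84, adjusted p = 0.00221). *smr-1*, the SMNDC1 (SPF30) ortholog, rose from 761 and 847 to 2544 and 2379 (log2 fold change 1.61, adjusted p = 0.00171). The *cer6* libraries stood far above the WT libraries in these genes and close to each other. U2AF did not move as a pair. *uaf-2*, for the small subunit that reads the AG, rose from 1574 and 1876 to 3498 and 3449 (log2 fold change 1.01, adjusted p = 0.00449). *uaf-1*, for the large subunit that binds the polypyrimidine tract, had 2943 and 3542 in WT and 3676 and 4099 in *cer6* and did not pass (log2 fold change 0.27, SE 0.145, adjusted p = 0.231). *mog-2*, for a U2 snRNP protein (SNRPA1), did not pass either (log2 fold change 0.34, adjusted p = 0.0592), nor did *sfa-1* for the branch point binding protein SF1 (log2 fold change 0.43, adjusted p = 0.113).

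Most genes for the later-acting parts of the spliceosome rose. Of 20 genes for proteins of U1 and the tri-snRNP, 15 rose and none fell, with a median log2 fold change of 0.96. Of 26 genes for the PRP19 complex and the step and release factors, 25 rose and none fell, with a median of 1.27. In all 26 of these both *cer6* libraries stood above both WT libraries, a pattern that 31.1% of all tested genes showed. *eftu-2*, for the GTPase of U5, had 9236 and 9956 in WT and 27162 and 26158 in *cer6* (log2 fold change 1.47, SE 0.108, adjusted p = 0.00192). *ddx-23*, for the PRP28 helicase that releases U1, went from 2890 and 3113 to 10004 and 9530 (log2 fold change 1.70, adjusted p = 0.00137). *prp-38*, for a factor needed to activate the tri-snRNP, rose from 904 and 936 to 3580 and 3062 (log2 fold change 1.85, adjusted p = 0.0016). *prp-8*, whose protein lies at the catalytic center, rose by 1.06 (adjusted p = 0.0122), from 26118 and 32723 to 55714 and 66780. Within the PRP19 list *plrg-1*, for a core subunit, rose from 2596 and 2653 to 8517 and 7656 (log2 fold change 1.62, adjusted p = 0.00154). *let-858*, the CWC22 ortholog, rose by the same 1.62 (adjusted p = 0.00183), from 3290 and 3783 to 10734 and 11006. The exception was *cyn-12*, for a cyclophilin, with 689 and 666 in WT and 751 and 716 in *cer6* (log2 fold change 0.11, adjusted p = 0.508). In U1 and the tri-snRNP those that did not pass included *rnp-7*, for U1-70K (log2 fold change −0.12, adjusted p = 0.553).

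The Sm proteins form the ring on the spliceosomal RNAs, and the LSm proteins the ring on U6 and on decaying messengers. Of 15 such genes 9 rose and none fell (median log2 fold change 0.96). *snr-5* had 1351 and 1203 in WT and 3570 and 3196 in *cer6* (log2 fold change 1.41, adjusted p = 0.00224), and *lsm-5* went from 719 and 712 to 2240 and 1796 (log2 fold change 1.49, adjusted p = 0.00269). *lsm-1*, whose protein acts in messenger decay and not in U6, had 707 and 599 against 535 and 438 and did not pass (log2 fold change −0.43, adjusted p = 0.112). The spliceosomal RNAs (snRNAs) stood higher as a class, and so did the small nucleolar RNAs (snoRNAs). Genes of snoRNAs took 0.229% and 0.180% of the reads in WT, 0.537% and 0.276% in *cer6*, and 0.404% and 0.405% in *cer39*. Of 99 snoRNA genes 17 rose (17.2%, against 13.8% of all genes) and none fell. Their median log2 fold change of 0.81 was 0.33 without *cer6* replicate 1 and 1.37 without *cer6* replicate 2. Genes of snRNAs took 0.298% and 0.232% of the reads in WT, 2.23% and 1.46% in *cer6*, and 1.37% and 1.5% in the unsorted *cer39* libraries. Of 49 snRNA genes 34 rose and none fell, and without *cer6* replicate 1 there were 25 that rose and 4 that fell. The low copies that turned in that fit had 0 reads in *cer6* replicate 2, and near-identical snRNA copies share reads, so single copies are uncertain. Of 6 genes for spliced leader RNAs and *trans*-splicing proteins 5 rose, among them *sna-2* (1615 and 1495 against 3607 and 3024, log2 fold change 1.09, adjusted p = 0.00418) and *sut-2* (1060 and 1232 against 2402 and 2353, log2 fold change 1.06, adjusted p = 0.00473). Without *cer6* replicate 1 there were 2 of these 6, and without any other single library 3.

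**Figure D1:**
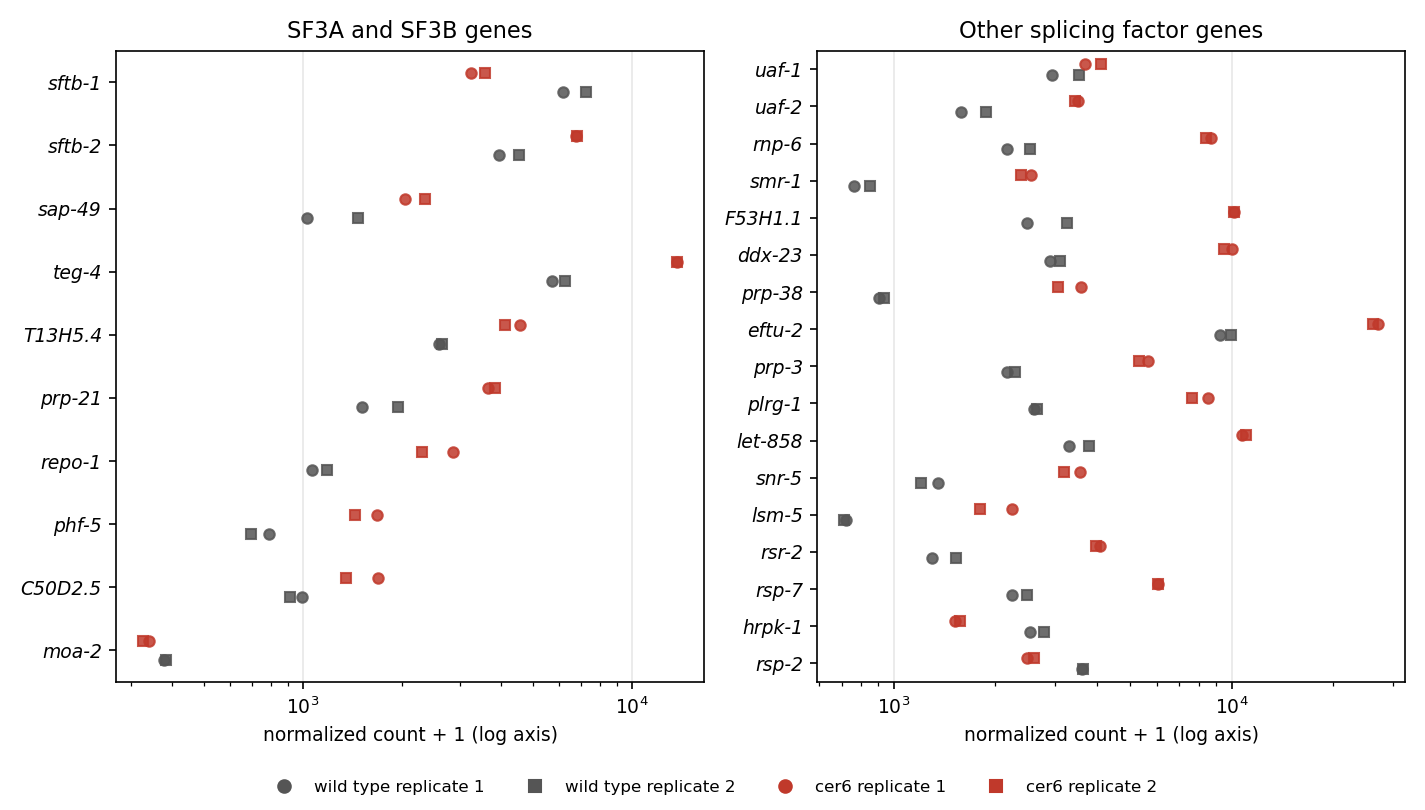
Normalized count + 1 (log axis) of splicing factor genes in each library, grey for WT and red for *cer6*, circles for replicate 1 and squares for replicate 2. *sftb-1* is lower in both *cer6* libraries, most other genes are higher, and *moa-2*, *hrpk-1* and *rsp-2* are lower.

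For regulators of splice site choice the calls were about as frequent as over all genes. SR proteins bind exonic enhancers, and hnRNP proteins often act against them. Of 36 genes for SR proteins and other regulators 5 rose and 4 fell, against 13.8% and 13.8% of all genes, with a median log2 fold change of −0.18. The pair with the largest rises, *rsr-2* for the SRm300-like protein of the spliceosome and *rsp-7* for an SR-related protein, had 1298 and 1529 against 4091 and 3977, and 2231 and 2470 against 6069 and 6076. Their log2 fold changes were 1.52 (adjusted p = 0.00207) and 1.37 (adjusted p = 0.00193). *hrpk-1*, for an hnRNP K ortholog, fell from 2528 and 2784 to 1520 and 1571 (log2 fold change −0.78, adjusted p = 0.00764). *rsp-2*, for an SR protein, fell from 3609 and 3621 to 2477 and 2604 (log2 fold change −0.51, adjusted p = 0.0165), a call held with 2 of the 6 libraries left out in turn. *rsp-4*, the SRSF2 ortholog, had 1882 and 1992 against 1667 and 1602 and did not pass (log2 fold change −0.24, adjusted p = 0.12). With 1 library left out the number of regulators that rose was 2 or 5 and the number that fell 1 to 5. It was 2 and 5 without WT replicate 1, 5 and 2 without WT replicate 2, and 2 and 1 without any one of the others.

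The exon junction complex marks spliced junctions, and nonsense-mediated decay uses it to find messengers with early stops. Of 16 genes of both, 4 rose (25%) and none fell, against 13.8% and 13.8% of all genes. Besides *let-858* these were *mag-1*, for the MAGOH subunit of the junction complex (2941 and 2844 against 6514 and 5625, log2 fold change 1.07, adjusted p = 0.00343), *Y65B4A.6* (*eif-4A3*), for its helicase (3354 and 3687 against 8528 and 10865, log2 fold change 1.45, adjusted p = 0.00345), and *smg-7*, the only decay factor that passed (508 and 518 against 744 and 696, log2 fold change 0.49, adjusted p = 0.0296, not called with any library left out). *smg-2*, for the UPF1 helicase of the decay pathway, had 2795 and 3920 in WT and 2619 and 3014 in *cer6* (log2 fold change −0.24, adjusted p = 0.429). The other 12 genes did not pass, among them *rnp-4*, for the Y14 partner of MAG-1 in the junction complex (2815 and 2235 against 3020 and 2528, adjusted p = 0.587).

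Many of the core genes stood between both groups in the *cer39* larvae, which share the WT controls and so are given only as values. *rnp-6* had 4452 and 4444 there, *ddx-23* 5157 and 5249, *plrg-1* 4402 and 4651, and *teg-4* 7688 and 7548. *sftb-1* itself had 7333 and 6706 in *cer39*.

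Across the genome 2067 genes rose and 2075 fell of 15011 tested, and 1593 transcripts rose (6.98%) and 1599 fell (7.01%) of 22811. The gene count was 1903 without *cer6* replicate 1, 1939 without *cer6* replicate 2, 2424 and 2443 without *cer39* replicate 1 or 2, 3414 without WT replicate 2 and 3957 without WT replicate 1, against 4142 with all. In 13 of 45 gene lists more than 50% of the tested members passed in 1 direction. Besides the splicing lists above, these were the mitochondrial ribosomal proteins, the nuclear-encoded respiratory chain, the mitochondrial unfolded protein response, glycolysis with gluconeogenesis, the fungus-induced peptides and the *pals* family. Without *cer6* replicate 1 or 2 there were 7 and 6 such lists.

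**Figure D2:**
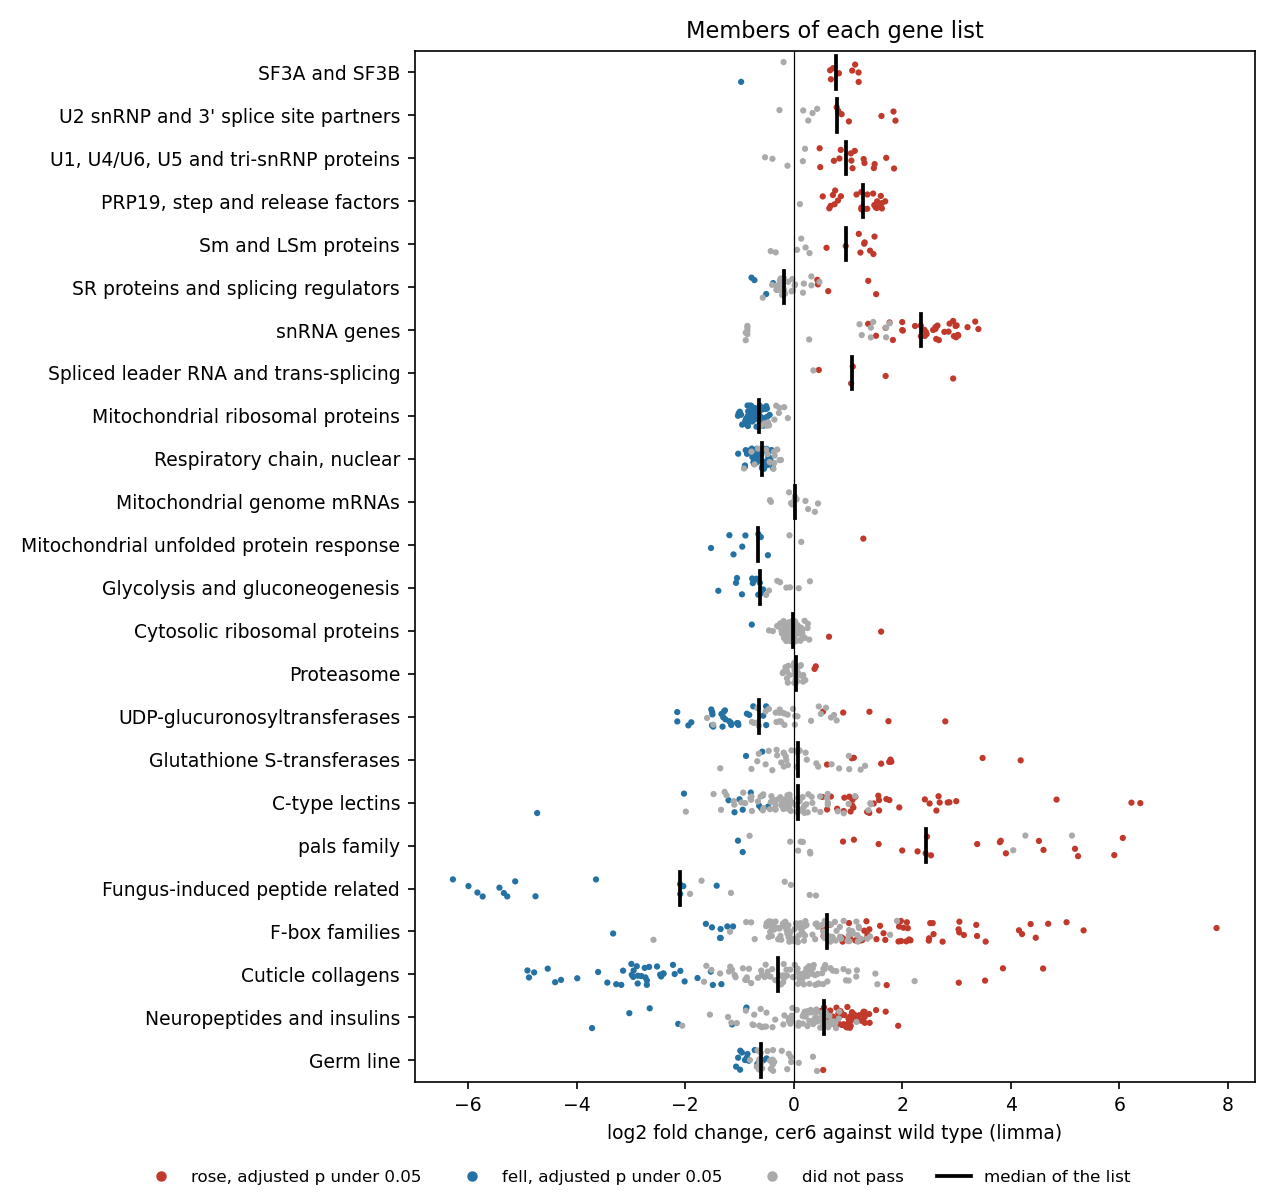
log2 fold change of *cer6* against WT for every tested member of 24 gene lists (points), red where the gene rose, blue where it fell and grey where it did not pass the adjusted p of 0.05, with a black bar for the median of the list. The core splicing lists lie to the right of 0, the mitochondrial lists of nuclear genes to the left, and the messengers of the mitochondrial genome on both sides.

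Nuclear genes for mitochondrial proteins fell together, each by a modest amount. Of 70 genes for mitochondrial ribosomal proteins 59 fell and none rose, with a median log2 fold change of −0.65. In 69 of the 70 both *cer6* libraries stood below both WT libraries, as in 32.7% of all tested genes. *mrps-34*, for a protein of the small mitochondrial subunit, had 1656 and 1539 in WT and 782 and 796 in *cer6* (log2 fold change −1.02, SE 0.103, adjusted p = 0.00315). The count of 59 was 37 without *cer39* replicate 1 or replicate 2 and 21 without *cer6* replicate 2. Of 59 nuclear genes of the respiratory chain 45 fell and none rose (median −0.59), and in all 59 the *cer6* libraries were the lower ones. *nduf-6*, for a complex I subunit, had 5044 and 4613 against 2436 and 2304 (log2 fold change −1.03, adjusted p = 0.00298), and *atp-5*, for a subunit of ATP synthase, 26362 and 26073 against 14863 and 15175 (log2 fold change −0.80, adjusted p = 0.00608). The count of 45 was 24 without WT replicate 2, 26 and 27 without *cer39* replicate 1 or 2, and 14 and 15 without *cer6* replicate 1 or 2. None of 12 messengers transcribed from the mitochondrial genome passed in either direction, whether by limma, edgeR or DESeq2, and at an unadjusted limma p of 0.05 the count was still 0. *ctc-1*, for cytochrome oxidase subunit I, had 238942 and 165506 in WT and 304669 and 222237 in *cer6*, groups that overlapped (log2 fold change 0.39, SE 0.312, adjusted p = 0.406).

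The mitochondrial unfolded protein response raises chaperones and proteases when import or folding in mitochondria fails. Its genes were mostly lower in *cer6*, with 8 of 11 fallen and 1 risen. *hsp-60*, for a chaperonin, had 41826 and 46720 in WT and 14344 and 16429 in *cer6* (log2 fold change −1.53, SE 0.135, adjusted p = 0.00256). *hsp-6*, for the mitochondrial HSP70, had 29229 and 34369 against 12712 and 15248 (log2 fold change −1.19, adjusted p = 0.00592). Both are standard reporters of the response, and both stood lower in each *cer6* library. *ubl-5*, for a ubiquitin-like protein that acts in the response and whose yeast counterpart HUB1 binds the spliceosome, was the member that rose, from 513 and 428 to 1294 and 1005 (log2 fold change 1.28, adjusted p = 0.006). *atfs-1*, for the transcription factor of the response, had 5056 and 4248 against 4870 and 5333 (log2 fold change 0.14, adjusted p = 0.462). There were 5 members that fell without *cer6* replicate 1 or replicate 2.

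Most genes of glycolysis and gluconeogenesis fell too. Of 21 such genes 13 fell (61.9%) and none rose (median −0.63), while over all genes 13.8% fell and 13.8% rose. *pck-2*, for phosphoenolpyruvate carboxykinase, had 82083 and 82070 in WT and 28893 and 33905 in *cer6* (log2 fold change −1.39, adjusted p = 0.0049), and *ldh-1*, for lactate dehydrogenase, 7057 and 8574 against 3891 and 3644 (log2 fold change −1.05, adjusted p = 0.00512). Without WT replicate 2 there were 8 that fell, and without *cer6* replicate 1 or 2 there were 4 and 6. No list of fat metabolism was counted. *acs-2*, for an acyl-CoA synthetase of fat oxidation, fell from 13498 and 14387 to 3224 and 4296 (log2 fold change −1.90, adjusted p = 0.00293). *acdh-2*, for an acyl-CoA dehydrogenase, had 10500 and 7014 in WT and 494 and 41.7 in *cer6*, a difference far beyond the replicates even though the *cer6* libraries were far apart (log2 fold change −5.88, SE 1.13, adjusted p = 0.0167). Its level was also low in *cer39*, at 234 and 505. Aminoacyl-tRNA synthetases, which charge tRNAs, fell in 12 of 32 (37.5%) and rose in 2 (6.25%), with *kars-1* at 15780 and 16128 against 7644 and 7882 (log2 fold change −1.04, adjusted p = 0.00299). There were 6, 6, 5 and 6 that fell without *cer39* replicate 1 or 2 and *cer6* replicate 1 or 2. The lists for cytosolic ribosomal proteins and the proteasome gave few calls beside the shares of all genes. In the first 2 of 82 rose (2.44%) and 1 fell (1.22%). Among proteasome genes 2 of 31 rose (6.45%) and none fell. Neither proteasome gene passed with 1 library left out, whichever it was.

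Genes that answer metals and toxic compounds included large changes. Over all genes 13.8% rose and 13.8% fell, and in the short list of metal and RNA-processing stress both shares were 21.4%. Of 14 genes of metal and RNA-processing stress 3 rose and 3 fell, with 5 fallen without WT replicate 1, 2 without *cer39* replicate 1 or 2 and 1 without *cer6* replicate 1 or 2, and 2 risen without *cer6* replicate 2. The near-identical neighbours *numr-1* and *numr-2*, which respond to metals and to disturbed RNA processing, were 2 of the 3 that rose and among the largest rises of abundant genes. *numr-1* had 305 and 132 in WT and 14041 and 7189 in *cer6* (log2 fold change 5.64, adjusted p = 0.00256), and *numr-2* had 305 and 132 against 14041 and 12330. Most reads cannot be assigned to one or the other copy, and the values were equal in 3 of these 4 libraries, so the pair counts as 1 signal. *pgp-8*, for an ABC transporter of the P-glycoprotein type, rose from 119 and 128 to 5283 and 4731 (log2 fold change 5.33, SE 0.124, adjusted p = 0.000437). More of its family fell than rose, with 6 of 35 ABC transporter genes risen (17.1%) and 9 fallen (25.7%), at a median of −0.10. *gst-24*, for a glutathione S-transferase, rose from 380 and 673 to 10636 and 7922 (log2 fold change 4.18, adjusted p = 0.00192). Both genes had intermediate values in *cer39*, 601 and 648 for *pgp-8* and 5109 and 4216 for *gst-24*. Of 43 glutathione S-transferase genes 9 rose and 2 fell, and *gst-4*, the widely used reporter of oxidative stress, was among those that fell (1432 and 1964 against 992 and 836, log2 fold change −0.88, adjusted p = 0.022), a call held with 2 of the 6 libraries left out in turn. Without *cer6* replicate 2 there were 5 that rose. UDP-glucuronosyltransferases, which make toxic compounds soluble, went the other way, with 28 of 63 fallen and 5 risen (median −0.65). *ugt-26* fell from 5235 and 4152 to 1185 and 932 (log2 fold change −2.15, adjusted p = 0.00223), and *ugt-39* rose from 372 and 559 to 3470 and 2882 (log2 fold change 2.79, adjusted p = 0.0021). There were 17 that fell without *cer39* replicate 1, and 13 and 11 without *cer6* replicate 1 or 2. Of 69 cytochrome P450 genes 10 rose (14.5%) and 7 fell (10.1%), near the 13.8% and 13.8% of all genes. Without *cer39* replicate 1 or 2 there were 4 that rose and 4 that fell, without *cer6* replicate 1 there were 4 that rose, and without *cer6* replicate 2 there were 3 that fell. Members of the same subfamily differed. *cyp-13A5* rose (967 and 859 against 3979 and 3042, log2 fold change 1.93, adjusted p = 0.00229) and *cyp-13A2* fell (6446 and 6970 against 1749 and 1702, log2 fold change −1.96, adjusted p = 0.00193). Heat shock genes of the cytosol and the endoplasmic reticulum gave 1 rise and 1 fall of 19. With *cer6* replicate 1 left out 8 rose, and none passed in either direction without WT replicate 2 or *cer6* replicate 2.

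Defence genes included some of the largest changes. Over all genes 13.8% rose and 13.8% fell. Lysozymes, saposins and caenacins, which act against microbes, had 12 of 45 risen (26.7%) and 4 fallen (8.89%). *lys-1*, for an intestinal lysozyme, had 24302 and 24777 in WT and 114004 and 108999 in *cer6* (log2 fold change 2.18, adjusted p = 0.00171), and *lys-2* had 7024 and 6679 against 29440 and 34865 (log2 fold change 2.23, adjusted p = 0.00159). Of 117 C-type lectin genes 32 rose (27.4%) and 11 fell (9.4%). Among them *clec-265* rose from 4085 and 4072 to 21223 and 25142 (log2 fold change 2.5, adjusted p = 0.000984). The lectins that rose numbered 21 without *cer6* replicate 1, and those that fell 5 without WT replicate 2, 4 without either *cer39* library, and 3 and 0 without *cer6* replicate 1 or 2. Lysozymes and their kin that rose numbered 7 without *cer6* replicate 1. The *pals* genes answer intracellular infection by microsporidia and the Orsay virus. In that family 18 of 30 rose (60%) and 2 fell (6.67%), with a median log2 fold change of 2.44. *pals-6* had 130 and 77.5 in WT and 1042 and 1069 in *cer6* (log2 fold change 3.38, SE 0.261, adjusted p = 0.00205), against 108 and 107 in *cer39*. *pals-22* and *pals-25*, neighbours that act against each other in control of the response, did not pass (247 and 214 against 282 and 236, and 309 and 224 against 412 and 256). The *pals* genes that rose numbered 4 without *cer6* replicate 1 and 4 without *cer6* replicate 2.

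The fungus-induced peptide genes *fipr-* went down. Of 21 of them 14 fell and none rose, with a median log2 fold change of −2.1, and with 1 library left out the count was 13 to 16. *fipr-21* had 16132 and 16056 in WT and 6262 and 5767 in *cer6* (log2 fold change −1.42, SE 0.104, adjusted p = 0.00192), and *fipr-4* had 2030 and 1302 against 70.8 and 28.9 (log2 fold change −5.13, adjusted p = 0.00256). Members of this family are alike in sequence and may share reads. F-box and MATH genes form large nematode families of substrate adaptors for protein breakdown. Of 158 F-box genes 53 rose and 8 fell (median 0.61), and *fbxa-163* had 5.71 and 6.64 in WT and 1627 and 1539 in *cer6* (log2 fold change 7.79, adjusted p = 0.000785), with 122 and 173 in *cer39*. There were 35 that rose without *cer39* replicate 1 or 2 and 23 and 29 without *cer6* replicate 1 or 2. Of 57 MATH and BATH genes 13 rose and 5 fell (median 0.12), against 13.8% and 13.8% of all genes. Of these 8 rose and 1 fell without *cer6* replicate 1, 5 rose and 3 fell without *cer6* replicate 2, 2 fell without *cer39* replicate 1 or 2, and 3 fell without WT replicate 2. *F10A3.1* (*clc-32*), for a claudin-like protein, had the largest rise by the naming rule, from 2.86 and 2.21 to 899 and 1240 (log2 fold change 8.23, adjusted p = 0.000785).

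**Figure D3:**
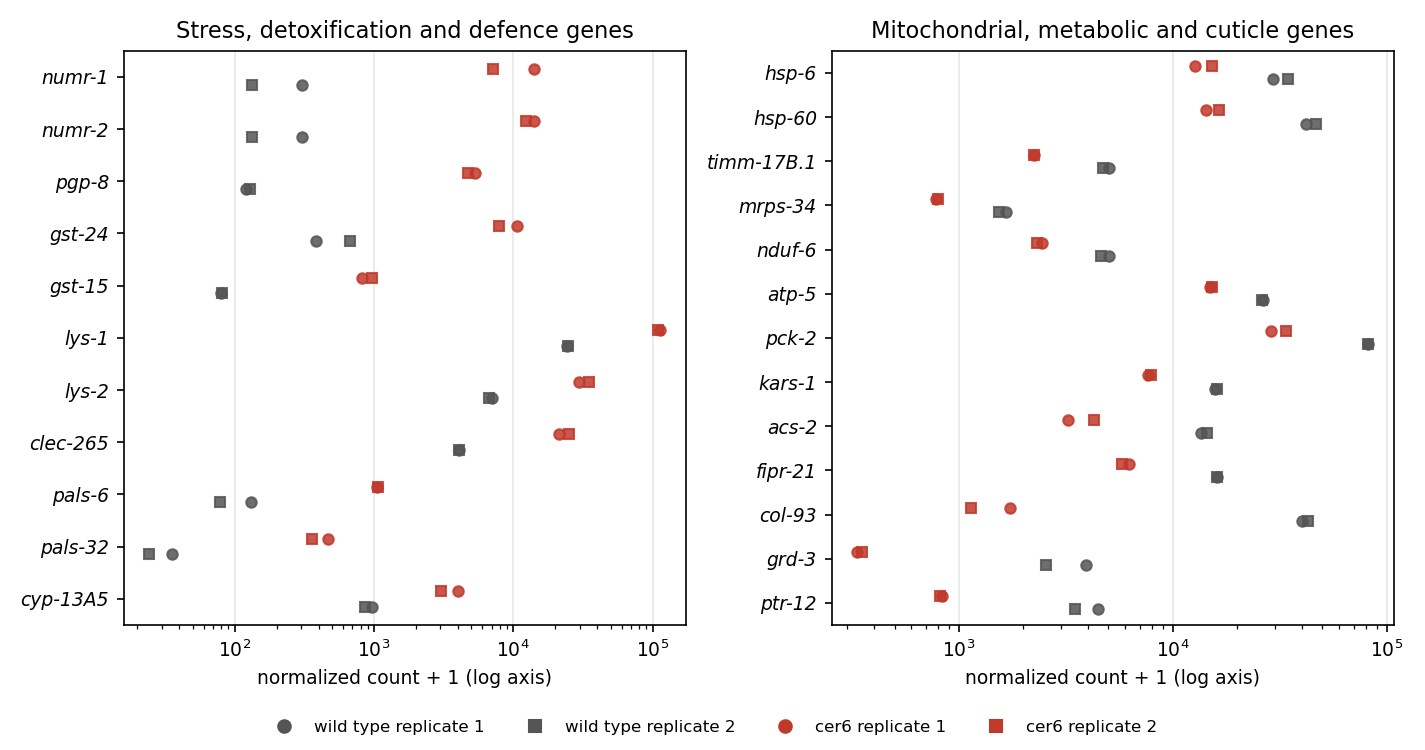
Normalized count + 1 (log axis) of stress and defence genes (left) and of mitochondrial, metabolic and cuticle genes (right) in each library, grey for WT and red for *cer6*, circles for replicate 1 and squares for replicate 2. Genes that rose were drawn on the left panel and genes that fell on the right, so the sides follow from the choice. Members of the same lists that went the other way, such as *gst-4*, *cyp-13A2* and *ubl-5*, are not drawn.

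Part of the collagen genes fell. Collagens are the main protein of the cuticle and are made in waves with each molt. Of 126 collagen genes 38 fell and 5 rose, and those that fell included abundant ones. The median of −0.29 was −0.56 and −0.79 without WT replicate 1 or 2, −0.13 and −0.57 without *cer6* replicate 1 or 2, and −0.56 by edgeR with TMM. *col-93* had 40300 and 42776 in WT and 1738 and 1143 in *cer6* (log2 fold change −4.88, adjusted p = 0.00137). The same gene had 57098 and 38560 in *cer39*. *grd-3*, for a hedgehog-related secreted protein, fell from 3907 and 2537 to 333 and 352 (log2 fold change −3.20, adjusted p = 0.00205), and *ptr-12*, for a patched-related receptor, from 4478 and 3499 to 831 and 816 (log2 fold change −2.26, adjusted p = 0.00205). The families as wholes were near the background, since of their 66 genes 9 fell (13.6%, against 13.8% of all genes) and 1 rose. Without WT replicate 2 there were 18 that fell, and without WT replicate 1 there were 5 that rose. Collagens that rose numbered 3 without either *cer39* library or *cer6* replicate 1, 2 without *cer6* replicate 2 and 9 without WT replicate 2. Among 58 genes of molting and the apical matrix 7 fell (12.1%) and 2 rose, with 12 and 11 fallen without WT replicate 1 or 2, and none risen without *cer6* replicate 1 or 2. Beside these stood genes that time the larval stages, of which 3 of 12 rose (25%) and 2 fell (16.7%). Over all genes these shares were 13.8% and 13.8%, so with 12 genes the counts say little about the list. Without *cer6* replicate 1 or 2 there were 1 that rose and none that fell, and without *cer39* replicate 1 or 2 there was 1 that fell. *lin-28*, for an RNA-binding protein that specifies the second larval stage, had 657 and 679 in WT and 2319 and 1753 in *cer6* (log2 fold change 1.59, SE 0.175, adjusted p = 0.00367), with 1315 and 1587 in *cer39*. *lin-14*, for a transcription factor of the first larval stage, rose by 0.50 (1610 and 1921 against 2435 and 2544, adjusted p = 0.0368), a call held with 1 of the 6 libraries left out in turn. *lin-46*, which acts downstream of *lin-28*, fell from 1720 and 796 to 376 and 459 (log2 fold change −1.49, adjusted p = 0.0341) and passed with 2 of the 6 left out. The part of developmental age in the cuticle genes was not tested.

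Markers of tissues were read beside these changes, against 13.8% of all tested genes risen and 13.8% fallen. The intestine list (12.8% risen and 12.8% fallen) and the yolk and sperm list (15% and 15%) were near these shares. Of 41 germ line genes 14 fell and 1 rose (median −0.61), and the summed normalized count of the list was 49490 and 66200 in WT and 37130 and 42680 in *cer6*. *fbf-1*, for a PUF protein that keeps germ line stem cells, had 645 and 843 against 357 and 386 (log2 fold change −0.99, adjusted p = 0.0162, held with 4 of the 6 libraries left out), and *mes-3*, for a chromatin regulator of the germ line, 2267 and 2348 against 1601 and 1516 (log2 fold change −0.57, adjusted p = 0.0122). There were 22 that fell without WT replicate 1, 3 without WT replicate 2, 3 and 4 without *cer39* replicate 1 or 2, and 2 and 1 without *cer6* replicate 1 or 2. Both *cer39* libraries were low for *fbf-1* too, at 353 and 290. Body wall muscle genes gave 3 falls of 40 and no rise, and 1 fall without WT replicate 2, *cer39* replicate 1 or 2 or *cer6* replicate 1. *tnt-3*, for a troponin T, had 6767 and 8070 against 2263 and 3122 (log2 fold change −1.47, adjusted p = 0.0058). Their sum overlapped between the groups, at 638200 and 986000 in WT and 565600 and 851300 in *cer6*. Pharynx genes fell in 8 of 27 and rose in 3, with 13 fallen without WT replicate 1 and 1 risen without *cer6* replicate 1 or 2. Intestine genes gave 6 rises and 6 falls of 47, with 12 rises without WT replicate 2 and 1 fall without *cer6* replicate 1, and *cpr-2*, for a cathepsin B protease of the gut, went from 25.7 and 24.4 to 1880 and 1206 (log2 fold change 5.86, adjusted p = 0.00137). Genes for yolk and sperm proteins, which mark later stages, gave 3 rises and 3 falls of 20 and summed to 3067 and 3277 in WT and 2889 and 2932 in *cer6*. With 1 library left out there were 0 to 2 rises and 0 or 1 fall. The yolk gene *vit-4* had 74.3 and 55.3 in WT and 12.7 and 1.16 in *cer6*. The part of tissue makeup in the other changes was not tested.

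Many neuropeptide and insulin genes rose, and most other neuronal genes did not pass. Of 130 such peptide genes 53 rose and 7 fell, with a median log2 fold change of 0.55. The summed normalized count of the list overlapped between the groups, at 177400 and 128000 in WT and 172800 and 140500 in *cer6*. *pdf-1*, for a peptide that acts in locomotion, had 2459 and 2286 in WT and 5801 and 5172 in *cer6* (log2 fold change 1.21, SE 0.108, adjusted p = 0.00256). *flp-1*, for FMRFamide-like peptides, had 2324 and 2192 against 4641 and 4638 (log2 fold change 1.04, adjusted p = 0.00283), with 4255 and 4614 in *cer39*. *nlp-26* went the other way, from 1138 and 1256 to 114 and 70.6 (log2 fold change −3.72, adjusted p = 0.0021). Of 37 genes for neurons and synapses 4 rose and none fell, and these 4 were *egl-3* and *egl-21*, for the enzymes that process neuropeptides (log2 fold changes 0.72 and 0.69, adjusted p = 0.0137 and 0.00979), *sbt-1*, for the chaperone of EGL-3 (0.60, adjusted p = 0.0229), and *unc-31*, for the factor that releases dense core vesicles (0.39, adjusted p = 0.0328). These 4 are 10.8% of the list, against 13.8% of all genes that rose. Peptide genes that rose numbered 21 without *cer6* replicate 1, 34 without *cer6* replicate 2 and 33 without either *cer39* library. For the neuronal list the numbers without *cer39* replicate 1 or 2 and *cer6* replicate 1 or 2 were 2, 2, 1 and 2.

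Splicing itself was read from the deposited table of rMATS events, which lists only those past the study's own threshold. The events are therefore a description. Inclusion is the share of 1 of messengers that carry the alternative stretch. It was recomputed from the inclusion and skipping reads of each library. The paper describes its rMATS counts as taken from exon bodies as well as splice junctions, so inclusion reads need not cross a junction. Of 7143 events detected 493 are listed (6.9%), and 306 of these differed by more than 0.1 between the group means (4.28% of those detected). Skipped exons (SE) made up 164 of the 306 (3.32% of the SE events detected), retained introns (RI) 53 (12.2%), alternative 3' splice sites (A3SS) 34 (4.39%), mutually exclusive exons (MXE) 30 (5.55%) and alternative 5' splice sites (A5SS) 25 (5.54%). Exon inclusion was lower in *cer6* in 126 of the 164 and higher in 38. Intron retention was higher in 43 of the 53 and lower in 10. Of the 306, 263 had 20 reads or more in each library and groups that did not overlap. The table names the group of each library and not its replicate number, so values are given in the order listed.

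The exon with the largest change among those with 20 reads or more lies in *swp-1*, for a SWAP-domain regulator of splicing. Inclusion of this exon of 60 bases at III:5704688-5704747 was 0.847 and 0.833 in WT and 0.140 and 0.236 in *cer6*, and 22 reads or more stood behind each value. An exon of 57 bases in *Y17G7B.20* at II:11979048-11979104 went from 0.727 and 0.694 to 0.280 and 0.321, with at least 825 reads. The gene itself rose (log2 fold change 1.66, adjusted p = 0.00154). *F57B9.3* carries an exon of 273 bases with inclusion of 1 and 1 in WT and 0.640 and 0.544 in *cer6*. The WT values rest on only 65 and 21 reads, against 435 and 268 in *cer6*, where the gene was higher by 2.94 on the log2 scale. *tcer-1*, for a transcription elongation and splicing factor, has an exon of 27 bases at II:7049886-7049912 that went from 0.763 and 0.792 to 0.467 and 0.468, on at least 398 reads. An exon in *cpna-1*, for a copine of muscle attachment, moved the other way, from 0.334 and 0.309 to 0.702 and 0.711. *Y69H2.3*, with 11 events past 0.1 the gene with the most of them, had an exon of 90 bases at V:18661622-18661711 that went from 0.442 and 0.434 to 0.174 and 0.107. The same direction was seen in *sms-1*, for a sphingomyelin synthase (0.959 and 0.953 against 0.771 and 0.495). Its values rest on 1 and 1 skipping reads in WT and 7 and 13 in *cer6*. In *nhx-5*, for a sodium-proton exchanger, inclusion also fell (0.767 and 0.538 against 0.357 and 0.354).

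Introns and splice sites changed in other genes. Retention of an intron of 48 bases in *hpo-34* at X:11515072-11515119 was 0.232 and 0.287 in WT and 0.601 and 0.626 in *cer6*, on at least 357 reads. In *sma-9*, for a zinc finger cofactor of TGF-beta signaling, an intron of 53 bases went from 0.439 and 0.473 to 0.773 and 0.756. Retention in *mpst-3*, for a sulfurtransferase, went from 0.365 and 0.461 to 0.725 and 0.857. The *pks-1* event, retention of 9504 bases that was lower in *cer6*, rests on 0 and 1 spliced reads in WT and 4 and 3 in *cer6* and so says little. Among acceptor sites, the longer form in *T11A5.6* went from 0.637 and 0.696 to 0.909 and 0.944. It rests on few reads of the shorter form, 6 and 5 in WT and 4 and 1 in *cer6*. In *C50B6.3* acceptor sites 6 bases apart were used in other proportions, with the upstream one falling from 0.439 and 0.344 to 0.141 and 0.154. Among donor sites, *toe-2* moved from 0.134 and 0.276 to 0.506 and 0.434 and *C12D12.1* from 0.401 and 0.371 to 0.126 and 0.185. The largest shift between exclusive exons was in *fbl-1*, for fibulin of basement membranes, with 0.633 and 0.632 in WT and 0.847 and 0.852 in *cer6*, on at least 511 reads. In *pdfr-1*, the receptor gene for the PDF peptides, it was 0.568 and 0.583 against 0.419 and 0.382.

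**Figure D4:**
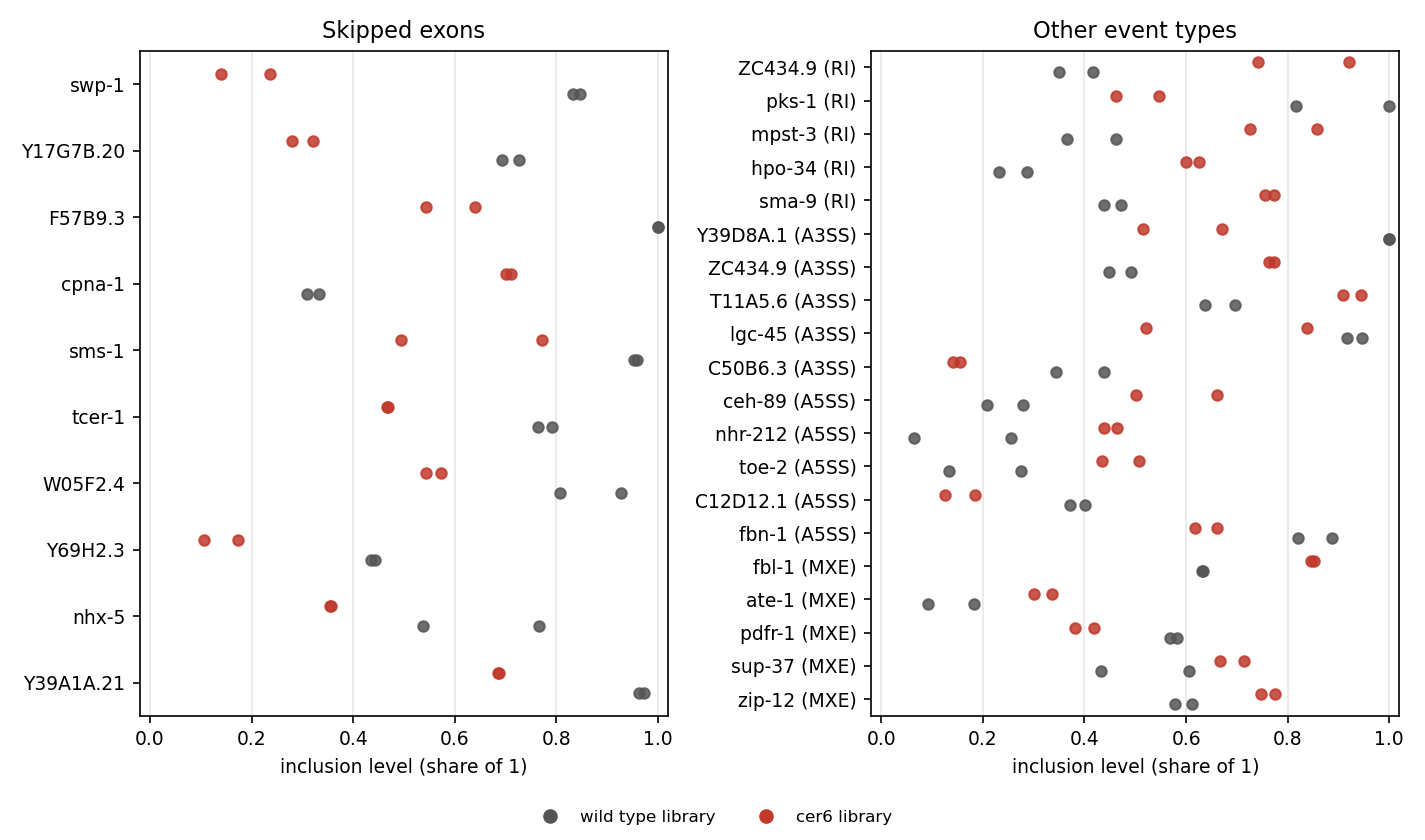
Inclusion level in each library (points, grey for WT and red for *cer6*) for the 10 SE events and the 5 of each other type with the largest difference, given 20 reads or more per library. The groups lie apart in each event because the choice required it, and 9 of the 10 exons have lower inclusion in *cer6*.

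Splicing factor genes held events of their own. In *uaf-1* an exon of 216 bases at III:1068036-1068251 went from 0.102 and 0.173 to 0.411 and 0.308, and retention of the neighbouring intron of 83 bases from 0.594 and 0.487 to 0.290 and 0.33. The count of the whole gene did not pass (above), and the *uaf-1* events share junctions. *rbm-5*, for a regulator that acts on U2AF, moved at an acceptor from 0.539 and 0.558 to 0.797 and 0.762, and its gene did not pass (log2 fold change 0.02). Introns of the SR genes *rsp-1* (0.398 and 0.443 against 0.715 and 0.580) and *rsp-5* (0.498 and 0.261 against 0.631 and 0.668) were retained more. *rsp-4* and *rsp-7* had an exon of low inclusion in WT that was lower still in *cer6*, 0.128 and 0.158 against 0.0795 and 0.0874, and 0.0821 and 0.0679 against 0.0336 and 0.0168. *etr-1*, for a CELF-type protein of muscle, took up an exon of 213 bases, from 0.387 and 0.372 to 0.543 and 0.559.

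The genes with events were changed in level about as often as other genes. Of the 239 genes with an event past 0.1, 232 were tested and 39 rose and 31 fell, against 13.8% and 13.8% over all genes. For exons with lower inclusion 21 genes rose and 13 fell of 108, and for introns with higher retention 3 rose and 9 fell of 40. The 126 exons that were left out more were short, with a median of 105 bases against 153 for 75323 annotated internal exons of tested genes. In 70.6% of them the length was a multiple of 3, against 39% of the annotated exons, and among the 38 with higher inclusion it was 73.7%. Introns on both sides were long, with medians of 318.5 bases upstream and 379 downstream against 77 for 91822 annotated introns. Introns with higher retention were short, with a median of 54 bases, and the 10 with lower retention had a median of 258. The acceptor pairs were a median of 10 bases apart, and in 82.4% the distance was a multiple of 3. Around the exons with higher inclusion the medians were 332.5 upstream and 237.5 downstream, and the difference from the exons with lower inclusion was not tested. Events that were detected and not listed were not analysed here. The annotated exons and introns are of every kind and not only alternative ones. Whether alternative exons and introns in general share these lengths was therefore not tested.

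**Figure D5:**
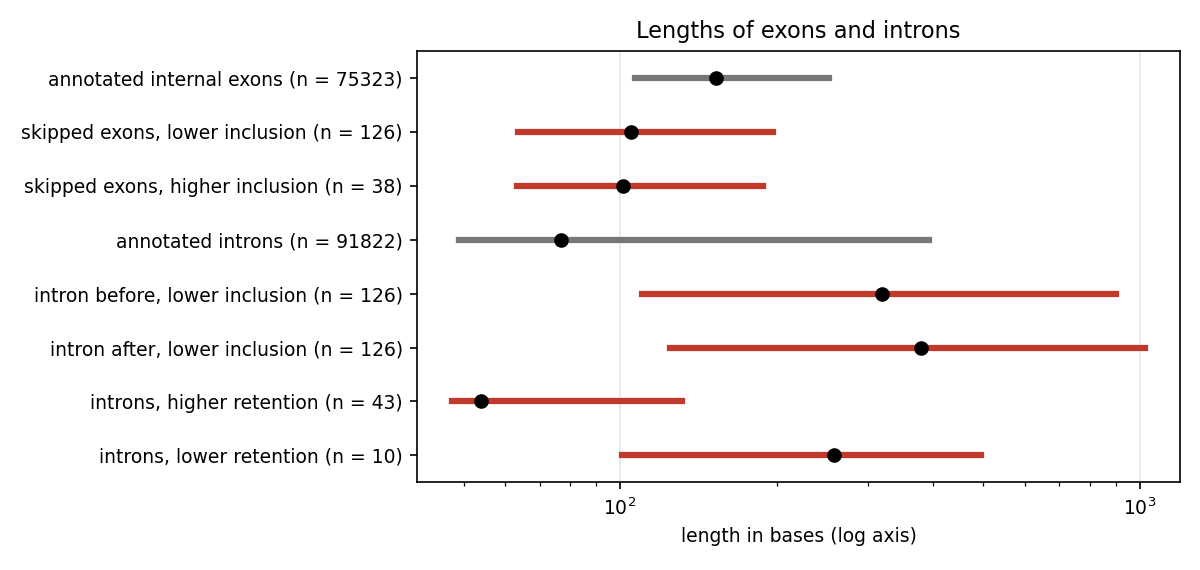
Lengths in bases (log axis) of exons and introns, with a point for the median and a bar from the lower to the upper quartile, grey for annotated features of tested genes and red for events past an inclusion difference of 0.1. Skipped exons are shorter than annotated ones whichever way they moved, and the introns around them are longer.

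The choice among annotated transcripts shifted in 248 of 4402 genes with several transcripts (5.63%) by diffSplice, the limma test of transcript against gene. Only 64 passed where each transcript had a variance of its own, of which 52 were among the 248, a fit added after the data were seen. A change of at least 0.1 in the share of a transcript was present in 156 of the 248, and 165 of them did not pass as genes. Of the 315 genes with a listed splicing event that were tested 46 passed (14.6%), and those 46 are 18.5% of the 248. In *C49H3.3* transcript 1 took shares of 0.0246 and 0.105 of the gene in WT and 0.814 and 0.894 in *cer6* (adjusted p = 0.00272, or 0.0635 with a variance per transcript), at a gene level that did not pass (log2 fold change 0.21). *kqt-3*, for a potassium channel, had no reads assigned to its second transcript in *cer6*, with shares of 0.459 and 0.656 in WT and 0 and 0 in *cer6* (adjusted p = 4.8e-05, or 0.0139 with a variance per transcript). In *set-05* the first transcript went from 0.939 and 0.929 to 0.444 and 0.362 (adjusted p = 0.00917, or 0.0133). *C30H6.12*, a gene that rose by 5.88, had only its first transcript in WT (1 and 1) and mostly its second in *cer6*, where the first had 0.306 and 0.278 (adjusted p = 0.000173, or 0.0152). The same rule also picked *pals-37*, *anmt-1*, *fbxa-158* and *Y110A7A.7*, which passed by diffSplice (adjusted p = 0.00792 to 0.0467). With a variance per transcript none of them passed (adjusted p = 0.102 to 0.271), and neither did *C49H3.3*. The largest share change of the genes named here was in *pals-37*, where the second transcript went from 1 and 1 to 0 and 0. Transcript values are estimates of how reads divide among overlapping forms, so a share at 0 or 1 can reflect the estimate.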

How the data were processed

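RNA of whole L2 larvae was sequenced from stranded total RNA libraries depleted of ribosomal RNA. The authors aligned reads with STAR to WBcel235, estimated transcript counts with RSEM and deposited them divided by DESeq2 size factors, so the values are a normalized signal and not counts (versions not given in the sources used here). Divided by the smallest step, 100% of the values came back as whole reads (within 0.1). The authors also deposited rMATS read counts, of inclusion and of skipping, for the events past their threshold. Their own inclusion differences and p-values came with these and were not used. WT and *cer6* each had 2 biological replicates.

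Transcripts were summed per gene (23421 transcripts of 15355 genes, 1 row with shifted columns left out). The 6 L2 libraries were fitted in 1 model with limma 3.58.1 in R 4.3.3 on log2(value + 1), as an unpaired contrast of *cer6* against WT, for genes with a mean of at least 10. Transcript choice was tested with diffSplice. edgeR 4.0.16 and DESeq2 1.42.0 were run on the recovered reads as alternatives, beside other pseudocounts, filters and scaling, the replicate number as a block, 4 libraries only, and each library left out in turn. The gene, transcript and isoform steps were also run on simulated counts, and the outcome is not given here. Libraries of equal replicate number were not treated as pairs. The correlation of their deviations was 0.12 between WT and *cer6*, −0.17 between WT and *cer39* and 0.04 between *cer39* and *cer6*. A correlation over genes of 1 difference per group cannot tell whether such libraries shared a batch, so the block is given as an alternative.

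Inclusion was the length-normalized inclusion reads over all reads. Named genes were the strongest calls of each list, the largest changes past a minimum level, and splicing factors the study names. Outside this rule, *cyn-12*, *gst-4*, *lsm-1*, *pals-22*, *pals-25*, *prp-8*, *rnp-4*, *rnp-7* and *smg-2* were chosen after their values were seen. The members and lists were chosen with earlier results of these data known. No genome sequence was used.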

Additional observations from a re-analysis of the deposited data

How the results depend on the processing

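Against 4142 genes changed, 2440 passed when only the 4 WT and *cer6* libraries were fitted and 2070 had a change of at least 2-fold. With each library left out in turn the count was 1903 to 3957. For 3192 transcripts changed the count was 1812 with the replicate block, 1262 with 4 libraries, 5497 with DESeq2 and 463 to 1648 with a library left out. Other scaling, filters, pseudocounts and edgeR kept both within 1.5 times, and TMM scaling gave 2216 genes risen of 4112 changed. The replicate block gave 3493 genes. The 248 shifts in transcript choice became 160 at a mean of at least 50, 156 with a share change of at least 0.1 and 64 with a variance per transcript, an alternative chosen after seeing the data. The 306 splicing events became 109 at a difference above 0.2, 493 with every listed event, and 295 to 298 with a library left out. Lists with most members called one way numbered 6 to 13 with a library left out. *haf-1*, which did not pass (−0.08), ranged from −0.24 without WT replicate 2 to 0.081 without WT replicate 1. *sftb-1* kept its call in each alternative, between −1.09 and −0.86, and 169 of 219 named genes kept theirs. The causes of these shifts were not tested. Genes with a mean under 10 normalized counts were not tested at this depth.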
